A study of Mus musculus with 6 samples.

Results

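The genes described here encode the proteins of the cytosolic ribosome, measured by RNA sequencing in mouse retina with and without Dicer1 in rod photoreceptors. They were chosen by name alone: the symbols that begin with Rpl or Rps followed by a number, with the paralog suffixes these symbols carry, plus Rplp0, Rplp1, Rplp2 and Rpsa. The rule took 84 of the 22731 genes in the deposited table, 48 of the large subunit, 33 of the small subunit and 3 of the P stalk. No expression value was used to choose them. The study compared 3 libraries of conditional knockout retina (cKO replicates 2, 3 and 4, genotype Dicerfl/fl, iCre75+) with 3 libraries of control littermates (replicates 1, 2 and 3, genotype Dicerfl/fl, iCre75-). Both groups therefore carried floxed Dicer1, which encodes the ribonuclease that matures microRNAs, and differed in the iCre75 transgene, which drives Cre recombinase in rods. All mice were 4 weeks old on the background given as "Mixed C57BL/6J - SJL", and the RNA of 4 mice was pooled for each library.

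The cytosolic ribosome is built from ribosomal RNA and a fixed set of proteins, most of them present as a single copy in each particle, so their mRNAs are usually made in proportion. Many of these mRNAs begin with a terminal oligopyrimidine tract, an unbroken run of C and T after the start site through which the mTOR pathway controls their translation. Mammalian genomes also carry large numbers of processed pseudogenes of these genes, copies of the spliced mRNA that can be nearly identical to the parent over the whole coding sequence.

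Values are RPKM, reads scaled to gene length and to depth. Reads worked back from the RPKM steps came to between 12336599 and 32935025 in genes per library, of which between 0.268% and 0.373% fell in the 84 ribosomal protein genes. Dicer1 in the whole retina was at 8.02, 7.06 and 7.90 RPKM in cKO replicates 2, 3 and 4 and at 8.48, 8.77 and 8.33 RPKM in control replicates 1, 2 and 3, so every cKO library lay below every control library. The 5 rod markers together summed to between 20500 and 23900 RPKM in controls and between 19400 and 21400 RPKM in cKO. The 3 lens markers summed to between 177 and 1760 RPKM in controls and between 96.9 and 1310 RPKM in cKO, and both blood markers (Hbb-b1 and Hba-a1) were listed at 0 in every library. Of the 14 marker sets the one whose sums separated the groups was that of bipolar cells, at 266, 268 and 273 RPKM in cKO replicates 2, 3 and 4 and at 224, 250 and 233 RPKM in control replicates 1, 2 and 3; its part in the ribosomal protein values was not tested. In whole tissue, fewer cells of a type and less RNA per cell cannot be told apart.

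Ribosomal protein genes spanned a very wide range of listed levels. Of the 84 genes, 9 had a mean of 100 RPKM or more over the 6 libraries, 31 lay between 10 and 100 RPKM, 29 between 1 and 10 RPKM, 13 above 0 but under 1 RPKM, and 2 were listed at 0 in every library. The highest was Rpl8, a protein close to the peptidyl transferase centre of the large subunit, on chromosome 15 (chr15:76904078-76906314, plus strand, GENCODE M21 on GRCm38). Rpl8 was at 314, 381 and 413 RPKM in cKO replicates 2, 3 and 4 and at 383, 355 and 498 RPKM in control replicates 1, 2 and 3, from between 5389 and 17383 reads per library. The groups overlapped, and control replicate 3 was the highest library. Other genes at high mean levels were Rpl4 (218 RPKM), Rplp1 (209), Rps14 (206), Rpl13a (183), Rps3 (174.5), Rplp0 (113.4), Rps9 (113.3) and Rpl7 (84.6). At the other end, Rps23, which lies at the decoding site of the small subunit, had 1 read in cKO replicate 3, 1 read in control replicate 3 and none elsewhere. Rpl26, at the rim of the exit tunnel for the new peptide, was listed at 0 in every library. Rpl5 and Rpl11, the proteins of the 5S ribonucleoprotein particle that also binds Mdm2, had means of 0.273 and 1.90 RPKM. Genes of the same particle thus differed by orders of magnitude in listed level.

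The listed level followed how much of a gene's coding sequence was its own. For 83 of the 84 genes the coding sequence was compared with all other transcripts in GENCODE M21. The exception was Rps4y2, which was looked up under the symbol Rps4l and for which no coding transcript was matched. A copy was counted where another gene's transcript matched at 95% identity or more over at least 80% of the coding sequence. In all 582 gene-to-copy matches were found, 551 of them annotated as pseudogenes. The 6 genes with no such copy (Rpl8, Rps3, Rps27l, Rpl3l and Rpl39l among them) had a median of 80.8 RPKM, 24 genes with 1 to 3 copies 39.2 RPKM, 36 genes with 4 to 9 copies 4.84 RPKM, and 17 genes with 10 or more copies 2.52 RPKM. The 6 genes with no such copy ranged from 0.022 to 391 RPKM, and 3 of them reached 10 RPKM. Of the 24 genes with 1 to 3 copies, 17 did. No gene with 4 or more copies reached 100 RPKM. These counts do not weigh how similar a copy is, so the share of 50-base coding windows found in no other annotated gene's transcripts was also taken.

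The first 30 coding bases, 5′ to 3′ and all in lower case, are shown for a few genes as examples of sequence held alone and sequence shared. Those of Rpl8 and Rps3 occurred in no other annotated gene, whereas those of Rps23, Rpl26, Rpl29 and Rpl21 occurred in 8, 7, 27 and 40 other genes. These 30 bases do not order the levels by themselves: Rpl29 had a mean of 29.8 RPKM with 27 matches, and Rps25, a small subunit protein, 0.719 RPKM with 0 matches.
Rpl8: atgggccgtgtgatccgagggcagaggaaa
Rps3: atggcggtgcagatttccaagaagaggaag
Rps23: atgggcaagtgtcgtggtctccgaactgcc
Rpl26: atgaagttcaatcccttcgtgacttctgac
Rpl29: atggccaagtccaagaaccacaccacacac
Rpl21: atgacgaacacaaagggaaagaggagaggc

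Over whole coding sequences, 15 genes had at least 50% of their windows to themselves and a median of 66.1 RPKM. A further 25 genes with 10% to under 50% unique windows had a median of 24.2 RPKM. The other 43 matched genes, with under 10% unique windows, had a median of 1.71 RPKM. Across the 83 genes the share of unique windows and the mean level had a Spearman rho of 0.56, and 0.75 across the 77 genes left when like-named paralogs were set aside. With windows of 36 or 100 bases rho was 0.54 (83 genes) and 0.51 (82 genes). For the number of copies in place of unique windows rho was -0.34 (83 genes). Genes are not independent replicates, so these are descriptions and carry no p. Rps23 had 0% unique windows and 14 copies, the closest of them 100% identical, and Rpl21, another large subunit protein, had 57 copies, 56 of them pseudogenes, and 1.08 RPKM. Rpl5 had 0% unique windows and 5 copies. The relation was not strict: 11 of the 43 genes with under 10% unique windows were still at 10 RPKM or more. Rpl13a reached 183 RPKM with 2.5% unique windows and Rpl41 reached 69.1 RPKM with 0%, both named here after their values were seen. No source used here states how the authors counted reads that match several places, so its part in these levels was not tested. Levels of genes with near-identical copies are uncertain in either direction.

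**Figure D1:**
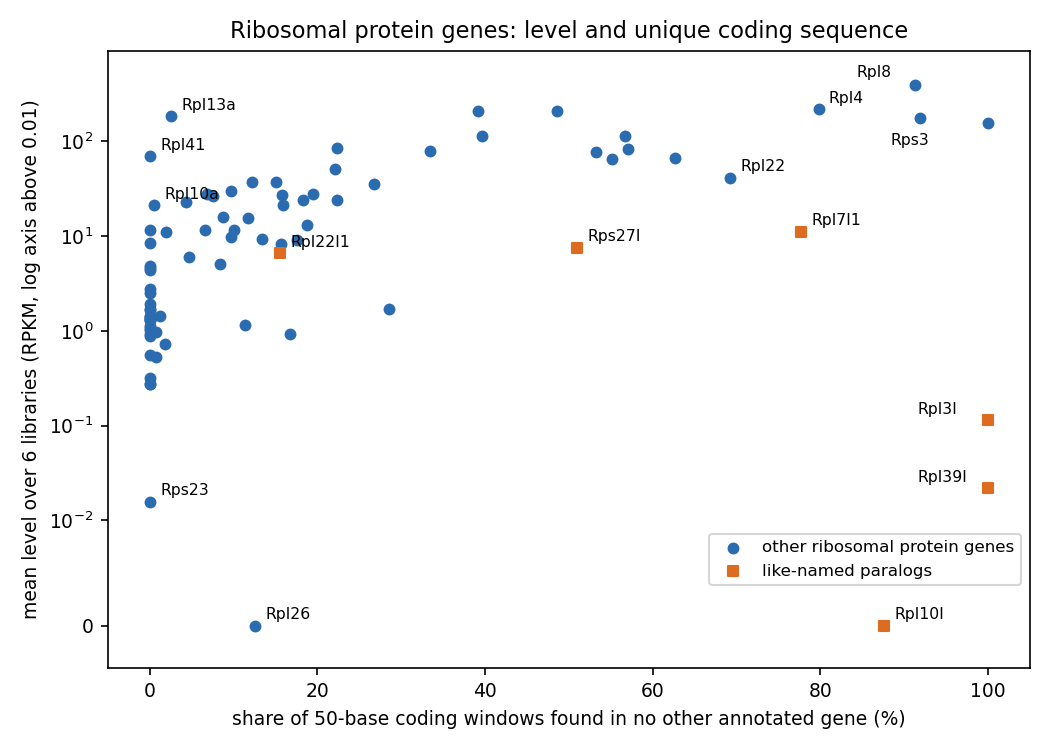
Mean RPKM over the 6 libraries (vertical axis, logarithmic above 0.01 and linear below) against the percentage of 50-base coding windows found in no other annotated gene (horizontal axis) for 83 ribosomal protein genes, with like-named paralogs as squares. Apart from the paralogs Rpl3l, Rpl10l and Rpl39l, the genes with at least 50% unique windows run from 7.54 RPKM (Rps27l) upward, while genes at 0% run from 0.0158 RPKM (Rps23) to 69.1 RPKM (Rpl41).

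Ribosomal proteins whose symbols fall outside the naming rule showed the same spread. Gnb2l1, which encodes the small subunit scaffold RACK1, has no counted copy and 98.6% unique windows and had a mean of 180 RPKM. Fau and Rpl36al, each with 0% unique windows, had means of 1.06 and 10.1 RPKM. None of these 3 genes was called different between the groups with limma (lowest adjusted p = 0.984).

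The like-named paralogs gave a set in which sequence and level came apart. Rpl3l, the counterpart of Rpl3 known from heart and skeletal muscle, had between 3 and 7 reads per library and a mean of 0.114 RPKM against 23.0 RPKM for Rpl3. Rpl10l, the testis counterpart of Rpl10, was listed at 0 in all libraries while Rpl10 had a mean of 1.29 RPKM. Rpl39l, another gene known from testis, had at most 2 reads in a library and a mean of 0.0220 RPKM against 21.4 RPKM for Rpl39. Yet these 3 paralogs had 100%, 87.6% and 100% unique windows, and no other gene with at least 50% unique windows had a mean under 1 RPKM. Their first 30 coding bases are shown beside the parent's, with the bases that differ in capitals: 7 differ for Rpl3 and Rpl3l, 6 for Rpl10 and Rpl10l, and 4 for Rpl39 and Rpl39l.
Rpl3: atgtcTcacAggaaAttctcAgcTccCAgg
Rpl3l: atgtcCcacCggaaGttctcTgcCccTCgg
Rpl10: atgggCcgCcgCccCgcCcgGtgttaccgg
Rpl10l: atgggTcgTcgTccGgcTcgCtgttaccgg
Rpl39: atgTcttctcacaagacTttcCgAatcaag
Rpl39l: atgGcttctcacaagacCttcAgGatcaag

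The other paralogs were present in retina. Rpl22l1, the counterpart of Rpl22, was at 3.93, 5.44 and 8.59 RPKM in cKO replicates 2, 3 and 4 and at 7.79, 6.08 and 7.66 RPKM in the controls. Rpl22 itself had a mean of 41.3 RPKM and was the higher of the pair in every library. Rps27l, a p53-responsive counterpart of Rps27, was at 4.66, 6.07 and 11.3 RPKM in cKO and at 10.0, 5.86 and 7.39 RPKM in controls. Its parent Rps27 had a mean of only 0.277 RPKM, from 2 to 8 reads per library. Rps27 has 0% unique windows and Rps27l 51.0%, so the order of this pair is one of the uncertain comparisons. Rpl7l1, a protein of early large subunit assembly, had a mean of 11.1 RPKM against 84.6 RPKM for Rpl7. Rps4y2 had a mean of 40.1 RPKM and Rps4x, the X-linked gene of the same protein family, 11.5 RPKM. Rps4x has 7 counted copies and 10.0% unique windows, and Rps4y2 was not compared, so the order of this pair is uncertain too. In each of the 4 tested paralogs cKO and control values overlapped, with log2 fold changes between -0.30 (Rpl22l1) and -0.01 (Rpl7l1) and adjusted p-values of at least 0.982 with limma.

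**Figure D2:**
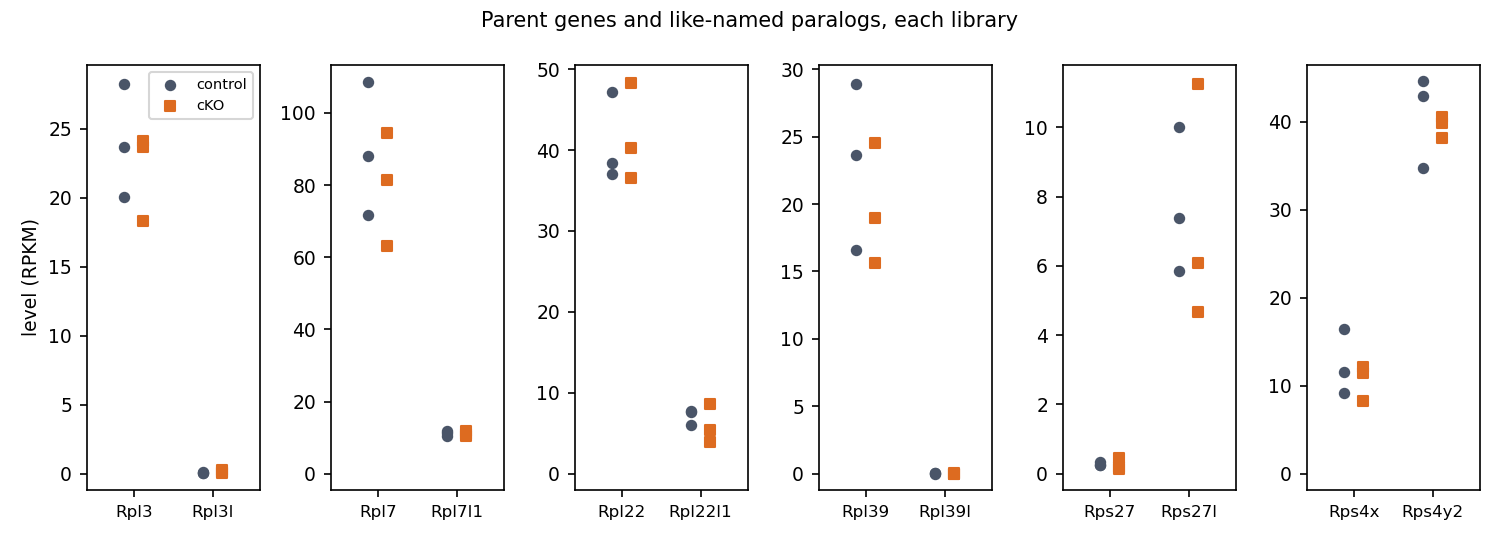
RPKM in each library (vertical axes, linear and different in each panel) for 6 parent genes and their like-named paralogs, with controls as circles and cKO as squares. Rpl3l and Rpl39l lie at or near 0 beside their parents, Rps27l and Rps4y2 lie above theirs, and the 2 groups overlap in the panels.

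Most ribosomal protein mRNAs moved together from library to library, in both genotypes. The summed level of the 84 genes was 2455, 2870 and 3393 RPKM in cKO replicates 2, 3 and 4 and 3100, 2563 and 3611 RPKM in control replicates 1, 2 and 3. The means were 2906 ± 470 RPKM in cKO and 3091 ± 524 RPKM in controls (SD, n = 3 each), a difference smaller than either SD. Of the 69 genes tested, 29 had their highest value in control replicate 3 and 21 in cKO replicate 4. The lowest value was in cKO replicate 2 for 41 genes and in control replicate 2 for 16. High and low libraries thus occurred in each group. The median deviation of the 69 genes from their own means, on the log2(RPKM + 0.5) scale, was -0.26, -0.06 and 0.18 in cKO replicates 2, 3 and 4 and 0.08, -0.18 and 0.22 in control replicates 1, 2 and 3.

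**Figure D3:**
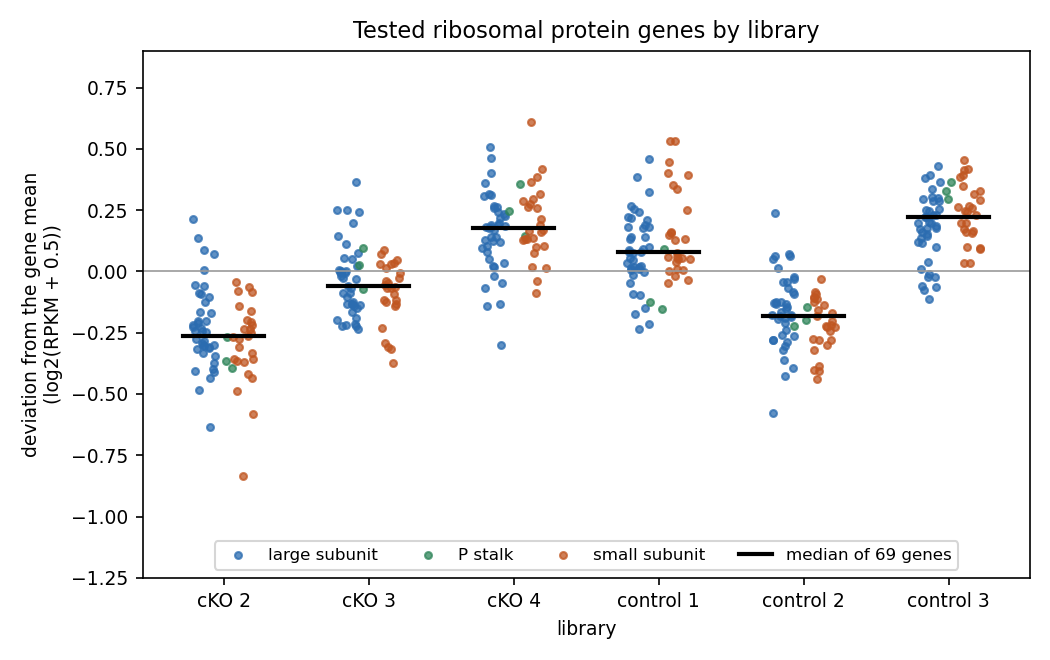
Deviation of each of the 69 tested ribosomal protein genes from its mean over the 6 libraries (vertical axis, log2(RPKM + 0.5)) by library, with large subunit, P stalk and small subunit genes as separate points and the median of all 69 as a bar. The medians lie between -0.26 in cKO replicate 2 and 0.22 in control replicate 3, and each group holds libraries on both sides of 0.

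Other short transcripts moved in the same way. Ribosomal protein mRNAs are short, with a median gene model of 725 bases (from 327 to 5134 bases) against 2869 bases for the other tested genes. The median deviation of the 320 other genes under 600 bases was -0.24, -0.02 and 0.24 in the cKO libraries and 0.08, -0.16 and 0.17 in the control libraries. The 74 tested mitochondrial ribosomal protein genes, which serve a separate ribosome, had medians of -0.23, -0.05 and 0.22 in cKO and 0.00, -0.17 and 0.22 in controls. The 544 genes of 8000 bases or more had 0.04, -0.07 and -0.09 in cKO and 0.07, 0.10 and -0.05 in controls. When a smooth trend with gene length was taken out of each library, the medians of the cytosolic ribosomal protein genes came to between -0.05 and 0.06. The cause of the length trend was not tested. Summed lens markers (730, 1310 and 96.9 RPKM in cKO replicates 2, 3 and 4; 1760, 177 and 614 RPKM in control replicates 1, 2 and 3) were in a different order from the ribosomal protein medians.

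**Figure D4:**
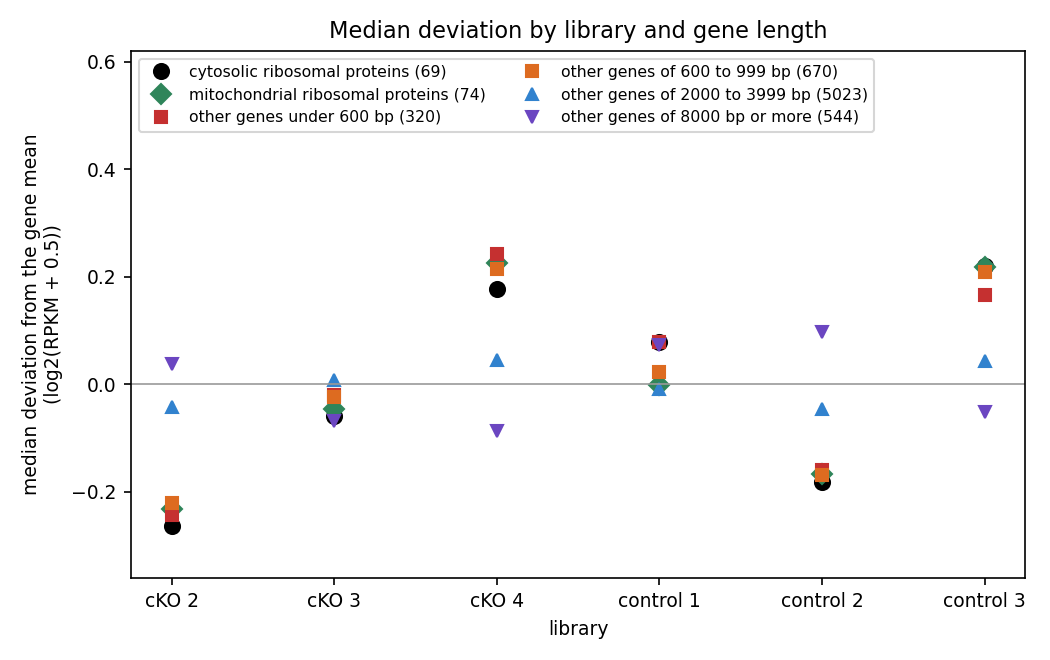
Median deviation from the gene mean (vertical axis, log2(RPKM + 0.5)) in each library for cytosolic and mitochondrial ribosomal protein genes and for other genes in 4 length classes. In cKO replicate 2 the cytosolic genes (-0.26) lie with the other genes under 600 bases (-0.24), and genes of 8000 bases or more lie on the other side of 0 (0.04).

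Between the groups, no ribosomal protein gene was called. The test was limma on log2(RPKM + 0.5) over 12599 genes averaging 1 RPKM or more, 69 of the 84 among them, with Benjamini-Hochberg adjustment and a threshold of 0.05. It called 0 of the 69 higher and 0 lower in cKO, where the whole table gave 0.00794% higher (Prm1, the protamine 1 gene, alone) and 0% lower. At an unadjusted p under 0.05 there were 0 higher and 2 lower among the 69, and 334 higher and 385 lower among all genes. The lowest adjusted p of a ribosomal protein gene was 0.871. A test by limma voom on the recovered reads also called 0 of the 69 in either direction. In 1 gene (1.45%) all 3 cKO values lay above all 3 control values and in 2 genes (2.90%) below them. Both shares were below those of all genes tested (5.91% and 5.78%), with all 6 libraries and values as deposited. Low shares were not limited to ribosomal protein genes. Other genes under 600 bases had 2.5% above and 5.62% below, and those in the length class starting at 600 bases 1.79% and 1.64%. The 74 mitochondrial ribosomal protein genes had 0% in both directions. Over all length classes of other genes the shares ran from 1.79% to 7.87% above and from 1.64% to 15.3% below. With the length trend taken out the counts of ribosomal protein genes were 2 above (2.90%, against 7.09% of all genes) and 5 below (7.25% against 6.96%). With median-ratio scaling they were 1 above (1.45% against 6.08%) and 4 below (5.80% against 5.33%). With 5 libraries the counts above were 4 without cKO replicate 2, 2 without cKO replicate 3 or control replicate 1, and 1 without any other library, against 7.83% to 13.3% of all genes. The counts below were 12 without cKO replicate 4 (17.4% against 16.2% of all genes) and 13 without control replicate 2 (18.8% against 12.1%). They were 2 or 3 without any other library (2.90% to 4.35%, against 7.41% to 10.3% of all genes).

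Estimated fold changes were small and mostly just under 0. They ran from -0.45 (Rps28) to 0.30 (Rpl27) on the log2 scale with a median of -0.09, against -0.005 for all genes tested. The sign was negative in 54 of the 69 genes (78.3%) and in 51.6% of all genes. Over the length classes of other genes the negative share ran from 46.8% to 78.1%, the highest in the 544 genes of 8000 bases or more. No tested ribosomal protein gene was in that longest class. It was 55.0% in other genes under 600 bases, 68.9% in mitochondrial ribosomal protein genes and 66.7% in ribosome biogenesis genes. A high negative share was thus not limited to ribosomal protein genes. The libraries were shared by all genes and the genes moved together, so these signs are not independent. On the values as deposited, the shift was smaller than the spread among the controls, whose SD of the median deviation was 0.20. Without cKO replicate 2 the median was -0.005 and 36 of 69 signs were negative, and without control replicate 3 it was -0.007, also with 36 negative. Without cKO replicate 4 or control replicate 2 it was -0.20 and -0.22, with 62 negative in both. With the length trend taken out it was -0.06 with 51 negative. The median deviations by library were then also smaller, so the SD of 0.20 is no measure for that shift. They were -0.0514, -0.0285 and -0.035 in cKO replicates 2, 3 and 4. In control replicates 1, 2 and 3 they were 0.0557, -0.0317 and 0.029, so control replicate 2 fell within the cKO range.

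**Figure D5:**
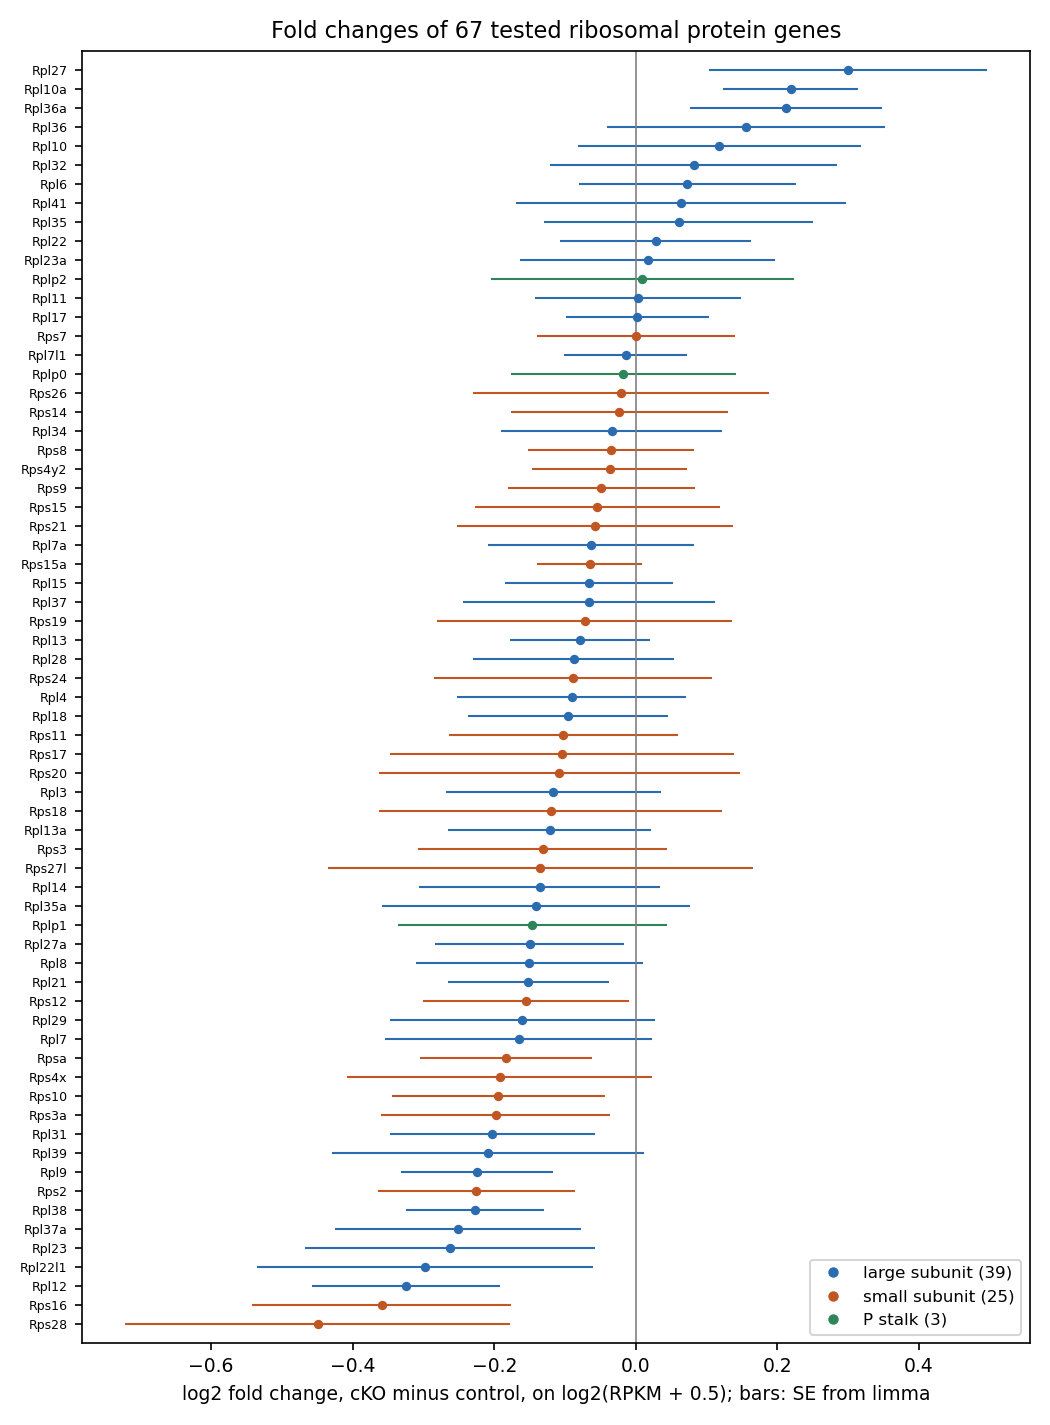
Log2 fold change, cKO minus control, with its SE from limma (horizontal axis) for 67 of the 69 tested ribosomal protein genes in order of fold change, with large subunit, small subunit and P stalk genes in different colours. Values run from -0.45 (Rps28) to 0.30 (Rpl27), and none passed the threshold after adjustment over all genes.

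In the large subunit, 27 of 40 tested genes had a negative and 13 a positive fold change, with a median of -0.09. Rpl10a, the protein of the L1 stalk (chr17:28328471-28331033, plus strand), was the gene whose cKO values all lay above the controls. It was at 21.96, 20.8 and 25.1 RPKM in cKO replicates 2, 3 and 4 and at 18.8, 18.7 and 20.5 RPKM in control replicates 1, 2 and 3. The groups were separate, but by a narrow gap between cKO replicate 3 and control replicate 3. The log2 fold change was 0.22 ± 0.09 (SE), with an adjusted p of 0.874 in limma and an exact two-sided permutation p of 0.1, the smallest that 3 against 3 libraries can give. Only 0.5% of the coding windows of Rpl10a are unique.

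Rpl38 was among the genes whose cKO values all lay below the controls. Rpl38, a small protein at the exit tunnel known for its part in the translation of Hox mRNAs in the embryo, was at 1.55, 1.44 and 1.43 RPKM in cKO and at 1.97, 1.599 and 1.87 RPKM in controls. These values rest on 8 to 28 reads per library and on a gene with 0% unique windows. The log2 fold change was -0.23 ± 0.10 (SE), with an adjusted p of 0.871 in limma and an exact permutation p of 0.1.

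Rpl12, at the base of the P stalk, had the smallest p among the 69 (unadjusted 0.041, adjusted 0.871 with limma). It was at 1.98, 2.23 and 3.00 RPKM in cKO and at 2.91, 3.30 and 3.09 RPKM in controls, so cKO replicate 4 fell within the control range. Rpl9 was at 2.08, 2.23 and 2.55 RPKM in cKO and at 3.08, 2.44 and 2.76 RPKM in controls, again with an overlap through cKO replicate 4. Among genes with a positive estimate, Rpl27 was at 1.22, 1.48 and 1.80 RPKM in cKO and at 1.31, 0.70 and 1.45 RPKM in controls. The low control was replicate 2, with 20 reads. Rpl36a, Rpl36 and Rpl10 had log2 fold changes of 0.21, 0.16 and 0.12 with overlapping groups and limma adjusted p-values of at least 0.957, and those of Rpl36 and Rpl10 changed sign with the libraries used. Rpl17 and Rpl7l1, among the most even genes, varied with an SD of 0.08 over the 6 libraries on the log2 scale.

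In the small subunit, 25 of 26 tested genes had a negative fold change, with a median of -0.10. None of these 26 separated the groups, against 5.91% above and 5.78% below among all genes tested. Among other genes in the length class starting at 600 bases the shares were 1.79% and 1.64%. The 1 tested gene without a negative fold change was Rps7, a gene mutated in Diamond-Blackfan anaemia, at a log2 fold change of 0.0009. The abundant Rps3, at the mRNA entry channel, was at 142, 166 and 189 RPKM in cKO and at 178, 145 and 226 RPKM in controls. Rps3 has 91.9% unique windows, and its cKO and control values overlapped widely. Rps16 had the smallest p of the small subunit (unadjusted 0.0858, adjusted 0.923 with limma), at 0.99, 0.95 and 1.61 RPKM in cKO and 1.98, 1.25 and 1.73 RPKM in controls. Rps28 varied most over the libraries of all 69 genes (SD 0.47 on the log2 scale), at 2.25, 4.69 and 4.65 RPKM in cKO and 6.57, 3.84 and 5.58 RPKM in controls. Rps15a, with a gene length of 5134 bases as worked back from the RPKM, varied least (SD 0.06) and lay between 7.79 and 8.75 RPKM in all 6 libraries. Rpsa, also known as the laminin receptor precursor, had a mean of 1.44 RPKM and a log2 fold change of -0.18 ± 0.12 (SE, adjusted p = 0.965 with limma).

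Rps6, the substrate of the S6 kinases, fell under the 1 RPKM mean and was not tested. It was at 0.67, 0.70 and 0.76 RPKM in cKO and at 1.02, 1.05 and 1.10 RPKM in controls, from 16 to 62 reads per library. The groups did not overlap, with an exact two-sided permutation p of 0.1. Rps6 has 11 counted copies, the closest 100% identical, and 0% unique windows. It is named here after its values were seen. With Rps6 included, 3 of the 82 ribosomal protein genes above 0 (3.66%) lay below the controls, against 5.51% of all 19140 genes above 0.

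The P stalk, the flexible arm that recruits elongation factors, was among the most abundant parts. Rplp0, its base, was at 93.3, 120 and 124 RPKM in cKO and 103, 102 and 138 RPKM in controls. Rplp1 was at 156, 196 and 244 RPKM in cKO and 219, 179 and 259 RPKM in controls, and Rplp2 at 60.02, 78.8 and 99.4 RPKM in cKO and 69.5, 66.3 and 99.9 RPKM in controls. All 3 were highest in control replicate 3 and lowest in cKO replicate 2, and their fold changes lay between -0.15 and 0.01. Of the 18 genes listed for Diamond-Blackfan anaemia, a failure of red cell production caused by ribosomal protein mutations, 14 were tested and none was called, with a median of -0.08. Of 9 proteins at the exit tunnel rim, 7 were tested, none was called and the median was 0.002. The 12 tested genes with at least 50% unique windows had a median of -0.06 with 10 negative, and the 56 with fewer unique windows had -0.11 with 43 negative.

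The rest of the translation machinery was also without calls in limma. Of 26 tested elongation factors and other mRNAs with oligopyrimidine tracts, 0 were called in either direction. Eef2, the translocation factor, had 507 ± 20.5 RPKM in controls and 509 ± 63.6 RPKM in cKO (SD, n = 3 each). Among 40 initiation and release factors, 81 ribosome biogenesis genes, 28 genes of TOR and Myc control and 74 mitochondrial ribosomal protein genes, 0 were called. The lowest adjusted p of these lists was that of Rrp1b, a nucleolar protein of ribosome assembly. Rrp1b was at 22.4, 23.8 and 26.9 RPKM in cKO and at 18.9, 19.3 and 18.3 RPKM in controls. All cKO values were the higher, with a log2 fold change of 0.36 ± 0.09 (SE) and an adjusted p of 0.691 in limma. Eif4g3, a scaffold of the cap-binding complex, was at 36.4, 34.6 and 36.3 RPKM in cKO and at 32.5, 34.2 and 32.6 RPKM in controls (adjusted p = 0.971 with limma). Eif2s3x, a subunit of the factor that brings the initiator tRNA, was at 1.09, 0.933 and 1.16 RPKM in cKO and at 1.24, 1.3 and 1.51 RPKM in controls (adjusted p = 0.874 with limma). Rps6kb2, an S6 kinase, was at 24.6, 28.0 and 33.4 RPKM in cKO and at 22.3, 22.3 and 24.9 RPKM in controls, where cKO replicate 2 lay within the control range. Nop16, another assembly protein, was at 8.70, 7.90 and 9.80 RPKM in cKO and 10.1, 9.84 and 12.7 RPKM in controls (adjusted p = 0.871 with limma).

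Promoters of the ribosomal protein genes were read from RefSeq on GRCm38.p6, with 75 promoters matched to 63 of the 84 genes. A run of at least 8 pyrimidines (C or T) on the transcribed strand within 30 bases of the annotated start was present in 49.3% of these promoters and in 22.9% of all 32851 promoters of the same length. The letters CTTTCC, which can lie within such a run, were in the same window in 17.3% against 2.89%. The letters CCGGAA, the core of an ETS family motif, were on either strand of the 300-base promoter in 48.0% against 14.9%. TATAAA on the transcribed strand within 50 bases upstream of the start was in 1.33% against 2.63%. A match is a description of the letters and not a shown site. The windows below carry the pyrimidine run in capitals, for some of the genes with such a run, from high to low levels. Counting the annotated start as 0, the run lies at -18 to -5 in Rpl4, -5 to 4 in Rplp2, -8 to 5 in Rpl14, -2 to 8 in Rps18, -14 to 6 in Rpl7a and -2 to 7 in Rpl38.
Rpl4, chr9:64173361-64173390, plus strand: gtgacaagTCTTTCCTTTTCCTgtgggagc
Rplp2, chr7:141447636-141447665, plus strand: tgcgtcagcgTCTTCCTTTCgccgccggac
Rpl14, chr9:120571501-120571530, plus strand: agggcgggCCCTCTCTCTTCTCgctgagcg
Rps18, chr17:33955648-33955677, minus strand: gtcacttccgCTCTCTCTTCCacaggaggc
Rpl7a, chr2:26910788-26910817, plus strand: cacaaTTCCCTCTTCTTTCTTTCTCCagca
Rpl38, chr11:114668568-114668597, plus strand: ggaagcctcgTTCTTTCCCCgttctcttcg
Genes with such a run were found at high and low levels, from Rpl4 at 218 RPKM to Rpl38 at 1.64 RPKM, Rps27 at 0.277 RPKM and Rpl26 at 0.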

How the data were processed

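Poly(A) RNA of retina was sequenced after random-primed cDNA synthesis that keeps no strand, per the labels' protocols. The authors deposited RPKM per gene and library; GSNAP, HTSeq and mm9 are named, without versions, in the submitters' processing notes. No source used here gives the handling of reads with several matches or the length model. Reads and gene lengths were worked back from the RPKM steps, giving whole reads for 100% of the 19140 genes above 0, which follows from the rule used to accept a length. Depth denominators were 15128203 to 40523119 reads. The values cannot show whether the denominator and reads of cKO replicate 4 should be 2 times as large. Groups follow the source names in the labels. The test was limma 3.58.1 (R 4.3.3) on log2(RPKM + 0.5) with a variance trend, over genes averaging 1 RPKM or more, with single genes also compared by an exact permutation test; both were tested on simulated data. With 3 pools per group, p-values measure the spread between pools. Copies came from blastn 2.17.0 and GENCODE M21 (GRCm38), promoters from RefSeq, neither on the authors' build. Genes named are the 10 highest, the 5 lowest tested, the 5 with the smallest p in each direction, the 3 most and 3 least even, paralogs with parents, the P stalk, Rpl5, Rpl11 and Rpsa, and, from each other translation list, the most abundant and the smallest p in each direction. Some named genes are not reported here. The genes and lists were chosen with earlier results of these data known. Alternatives were pseudocounts, filters, scaling, a length correction, a replicate block, left-out libraries and voom.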

Additional observations from a re-analysis of the deposited data

How the results depend on the processing

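No ribosomal protein gene was called in either direction by limma under other pseudocounts, other filters, median-ratio scaling, a length correction, voom on recovered reads or any left-out library. A replicate block on the 4 libraries numbered 2 and 3 in both groups called 3 lower: Rpl12 (-0.51, adjusted p = 0.0338), Rpl22l1 (-0.51, 0.0113) and Rpl23 (-0.39, 0.0405). The same block called 86 genes higher and 106 lower over the whole table. Without the block those 4 libraries called 0 ribosomal protein genes. Same-numbered libraries correlated at 0.465 (number 2) and -0.052 (number 3), where differently numbered pairs ran from -0.551 to 0.476. Whether same-numbered libraries were paired cannot be told from these values. Over all genes, 2 were called higher with a filter at a mean of 5 RPKM and 3 with either median-ratio scaling or the length correction, 2 were called lower with no filter, and voom called 2 higher and 1 lower.

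Separated ribosomal protein genes numbered 0 below the controls with the filter at 5 RPKM (3.74% of all genes), 4 (5.80%) below with median-ratio scaling (5.33% of all genes), and 2 (2.90%) above and 5 (7.25%) below with the length correction (7.09% and 6.96% of all genes). Leaving out 1 library gave 1 to 4 above and 2 to 13 below, against 7.83% to 13.3% and 7.41% to 16.2% of all genes. The median fold change lay between -0.22 and -0.005 over left-out libraries. Rpl10 ranged from -0.049 (without control replicate 2) to 0.30, and Rpl36 was at -0.0073 on libraries 2 and 3, with or without the replicate block. The cause of these changes was not tested. Some genes at low levels rest on few reads (8 to 28 per library for Rpl38), which limits their precision.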
